A study of Mus musculus with 10 samples.

Results

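Met, Fgfr1, Fgfr4, Egfr and Igf1r encode receptor tyrosine kinases for growth factors. Every CUT&RUN peak that the deposited tables list with 1 of these 5 gene symbols was taken, alone and summed by gene identifier. For histone H4 monomethylated at lysine 20 (H4K20me1) this gave 25 of 44925 peaks and 5 of 14565 genes, and for elongating RNA polymerase II, which bears phosphate on serine 2 of its tail (Pol II S2P), it gave 34 of 51322 peaks and 5 of 11251 genes. H4K20me1 peaks numbered 5 for Met, 4 for Fgfr1, 1 for Fgfr4, 6 for Egfr and 9 for Igf1r. Pol II S2P peaks numbered 8 for Met, 8 for Fgfr1, 4 for Fgfr4, 2 for Egfr and 12 for Igf1r.

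In CUT&RUN an antibody brings a nuclease to its target in opened cells, and the DNA it cuts free is sequenced. The cells were cultured stem cells of mouse skeletal muscle, known as satellite cells (MuSCs). Ctrl cells carried the genotype Pax7CreERT/Suv4-20h1WT and sKO cells the genotype Pax7CreERT/Suv4-20h1KO, where Suv4-20h1 is another name of Kmt5b, the gene of a histone H4 lysine 20 methyltransferase. Each genotype had 2 libraries for each antibody, 8 in all, described by the study as biological replicates. Both genotypes carry the tamoxifen-dependent Cre recombinase at Pax7, which acts in Pax7-positive cells of adult mice on a C57BL/6 background. Cells were purified with magnetic beads from limb and trunk muscle and grown on Matrigel in medium with serum, leukaemia inhibitory factor and basic fibroblast growth factor. The last of these is a ligand of fibroblast growth factor receptors, and it was in the medium of all cultures. Whether mice were pooled for a library is not given in the sources used here. The IgG libraries were not analysed here.

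A receptor tyrosine kinase binds its ligand outside the cell, pairs with another receptor molecule and phosphorylates itself and its adaptors, which feed the MAPK and PI3K cascades. In muscle, hepatocyte growth factor acting through MET, the product of Met, is known for waking quiescent satellite cells, and fibroblast growth factors acting through FGFR1 and FGFR4 for keeping myoblasts dividing. IGF1R, the receptor of insulin-like growth factors, is known for muscle growth and differentiation, and EGFR, the receptor of epidermal growth factor, for the division of many cell types. H4K20me1 is written by KMT5A (SETD8) in late stages of the cell cycle and spreads over bodies of transcribed genes, and KMT5B and KMT5C add further methyl groups to it. Phosphorylation of serine 2 marks polymerase that is travelling through a gene.

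All 5 genes lie on the plus strand of the mouse assembly GRCm38 (mm10), and the ends given with the peaks are those of GENCODE M21. Met (ENSMUSG00000009376) lies at chr6:17463800-17573980 and spans 110.2 kb. Fgfr1 (ENSMUSG00000031565) lies at chr8:25513654-25575718 and spans 62.1 kb. Fgfr4 (ENSMUSG00000005320) lies at chr13:55152640-55168759 and spans 16.1 kb, the shortest of the 5. Egfr (ENSMUSG00000020122) lies at chr11:16752203-16918158 and spans 166 kb. Igf1r (ENSMUSG00000005533) lies at chr7:67952827-68233668 and spans 281 kb.

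Promoter windows of 300 bases, from 250 before to 50 after a RefSeq start, were found for Met, Fgfr4, Egfr and Igf1r. They are shown because only the window of Fgfr4 overlapped a Pol II S2P peak, while the H4K20me1 peaks covered the windows of Fgfr4 and Egfr and began 394 bases past that of Met and 894 past that of Igf1r. Capitals mark GGGCGG, a GC box, on either strand, and TGAGTCA, the letters bound by AP-1, whose reverse complement is TGACTCA. All 4 are plus-strand sequences from RefSeq on GRCm38.p6, Met at chr6:17463707-17464006, Fgfr4 at chr13:55152568-55152867, Egfr at chr11:16751953-16752252 and Igf1r at chr7:67952007-67952306.
Met: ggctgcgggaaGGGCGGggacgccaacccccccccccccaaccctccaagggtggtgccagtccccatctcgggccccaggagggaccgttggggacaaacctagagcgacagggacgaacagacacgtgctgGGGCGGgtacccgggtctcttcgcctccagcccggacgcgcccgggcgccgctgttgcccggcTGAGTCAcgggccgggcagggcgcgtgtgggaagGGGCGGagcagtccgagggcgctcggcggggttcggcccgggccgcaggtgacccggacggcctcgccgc
Fgfr4: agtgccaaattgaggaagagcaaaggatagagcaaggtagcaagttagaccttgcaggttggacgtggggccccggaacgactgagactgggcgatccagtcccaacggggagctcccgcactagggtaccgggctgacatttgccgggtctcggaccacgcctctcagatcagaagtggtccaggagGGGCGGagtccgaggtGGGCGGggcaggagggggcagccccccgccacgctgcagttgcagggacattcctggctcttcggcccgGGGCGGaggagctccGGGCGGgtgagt
Egfr: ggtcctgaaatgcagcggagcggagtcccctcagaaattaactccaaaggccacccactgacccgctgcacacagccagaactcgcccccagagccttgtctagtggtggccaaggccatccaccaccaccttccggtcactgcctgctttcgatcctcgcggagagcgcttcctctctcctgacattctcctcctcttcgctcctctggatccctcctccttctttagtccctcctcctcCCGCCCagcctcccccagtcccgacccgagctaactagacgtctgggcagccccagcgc
Igf1r: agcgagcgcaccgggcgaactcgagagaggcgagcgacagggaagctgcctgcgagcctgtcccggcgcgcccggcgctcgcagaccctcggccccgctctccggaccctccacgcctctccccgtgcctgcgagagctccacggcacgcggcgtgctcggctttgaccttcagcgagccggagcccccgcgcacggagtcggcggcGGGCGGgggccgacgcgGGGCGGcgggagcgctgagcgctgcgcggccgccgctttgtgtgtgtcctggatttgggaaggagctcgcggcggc
The GC content was 75.7% for Met, 65.3% for Fgfr4, 62.3% for Egfr and 76% for Igf1r, beside a median of 52.7% over 32851 promoter windows. CG pairs numbered 34 for Met, 20 for Fgfr4, 15 for Egfr and 48 for Igf1r, beside a median of 7. GGGCGG stood 3 times in the window of Met, 4 times in that of Fgfr4, 1 time in that of Egfr and 2 times in that of Igf1r, and 35.7% of all windows held it. TGAGTCA stood in the window of Met alone, and 5.202% of all windows held it. None of the 4 windows held TATAAA, which 13.6% of all windows held.

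The deposited score of a peak is a whole number that stands for coverage normalised by spike-in and not divided by length. Each antibody has 1 set of peaks for its 4 libraries. Scores summed over all H4K20me1 peaks came to between 15218720 and 20432644 in Ctrl and between 32194136 and 35046570 in sKO, and those over all Pol II S2P peaks to between 3257665 and 4243685 in Ctrl and between 3435908 and 4885638 in sKO. The scale between libraries was not checked against spike-in counts, which were not used here, and more cells bearing the mark and more of it per cell cannot be told apart. Of 9 satellite cell and myoblast markers, 7 were listed with a Pol II S2P peak, with a summed score of 6449 to 9316 per library, and Myf5 and Cdh15 were listed with none. Of markers of other cells, 1 of 5 fibro-adipogenic (Col3a1, 268 to 501), 2 of 4 endothelial (Pecam1 and Tek, 133 to 256), 1 of 4 immune (Cd68, 840 to 1308) and 2 of 5 muscle fibre genes (Ckm and Mylpf, 855 to 1132) were listed with a peak. Pdgfra, Cdh5, Kdr, Ptprc, Myh1, Myh4 and Acta1 were listed with none. The summed scores are over different numbers of genes and do not compare levels between cell types. The peaks of Kmt5b were not divided into deleted and kept parts of the gene, so its scores do not check the genotype.

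H4K20me1 rose over all 5 receptor genes in sKO MuSCs on the deposited scale, and on that scale 92.3% of the 13750 autosomal genes tested rose and 0% fell. The log2 fold changes of the 5 ran from 1.12 to 2.29. Met, Fgfr4 and Egfr also rose relative to the median gene, whereas Fgfr1 and Igf1r did not pass that test. Changes are log2 fold changes of score + 1 with their standard errors, tested with limma across all genes, and a call required a log2 fold change beyond 0.5 in size together with a p under 0.1 after Benjamini-Hochberg adjustment. For the relative scale the median of each library was subtracted, which lowered every H4K20me1 fold change by 1.16, and 12.4% of genes then rose and 13.1% fell. The p-values rest on a variance shared across genes, and do not measure the spread of a single gene's own libraries alone.

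Met, whose receptor binds hepatocyte growth factor, had the largest rise of the 5. Its summed H4K20me1 score was 207 and 258 in Ctrl MuSCs and 1141 and 1128 in sKO MuSCs. Both sKO libraries lay over 4 times above both Ctrl libraries, and the sKO pair lay closer together than the Ctrl pair. The log2 fold change was 2.29 ± 0.27 (adjusted p = 5.68e-15), above that of 97.8% of genes tested, and 1.13 ± 0.13 relative to the median gene (adjusted p = 5.94e-11).

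Fgfr4, a fibroblast growth factor receptor of developing and regenerating muscle, was next. Its only H4K20me1 peak scored 173 and 215 in Ctrl and 801 and 795 in sKO. The groups stood well apart, as for Met. The log2 fold change was 2.04 ± 0.28 (adjusted p = 1.20e-11), and relative to the median gene it was 0.88 ± 0.16 (adjusted p = 1.86e-06). This peak, at chr13:55138800-55158799, was centred before the gene start, at -3840 bases from it, and a fraction of 0.3 of its length lay inside the gene.

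Egfr, whose receptor binds epidermal growth factor, scored 1776 and 1946 in Ctrl and 5725 and 6821 in sKO. Here the sKO libraries differed more from each other than the Ctrl libraries did, and the groups did not overlap. The log2 fold change was 1.75 ± 0.28 (adjusted p = 8.30e-09) and 0.59 ± 0.06 relative to the median gene (adjusted p = 2.84e-12). The latter lay just past the limit of 0.5 and was 0.46 without Ctrl replicate 2, which ended the call.

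Fgfr1, a fibroblast growth factor receptor of dividing myoblasts, scored 503 and 538 in Ctrl and 1400 and 1240 in sKO. Its log2 fold change was 1.34 ± 0.27 (adjusted p = 2.10e-06). Relative to the median gene it was 0.18 ± 0.11 (95% interval -0.04 to 0.40, adjusted p = 0.169), so that a move with the median gene and a slightly larger one were both within the interval. With libraries scaled to equal totals the log2 fold change of Fgfr1 was 0.36, below the limit.

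Igf1r, whose receptor binds insulin-like growth factors, had the smallest change. It scored 4449 and 5949 in Ctrl and 10421 and 11924 in sKO, without overlap between the groups. The log2 fold change was 1.12 ± 0.29 (adjusted p = 0.000251), against a median of 1.11 over all genes. Relative to the median gene it was -0.04 ± 0.05 (95% interval -0.14 to 0.05, adjusted p = 0.443). On the deposited scale the call of Igf1r was lost without sKO replicate 1 (adjusted p = 0.123) and without sKO replicate 2 (adjusted p = 0.206), and on equal totals its log2 fold change was 0.13.

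**Figure D1:**
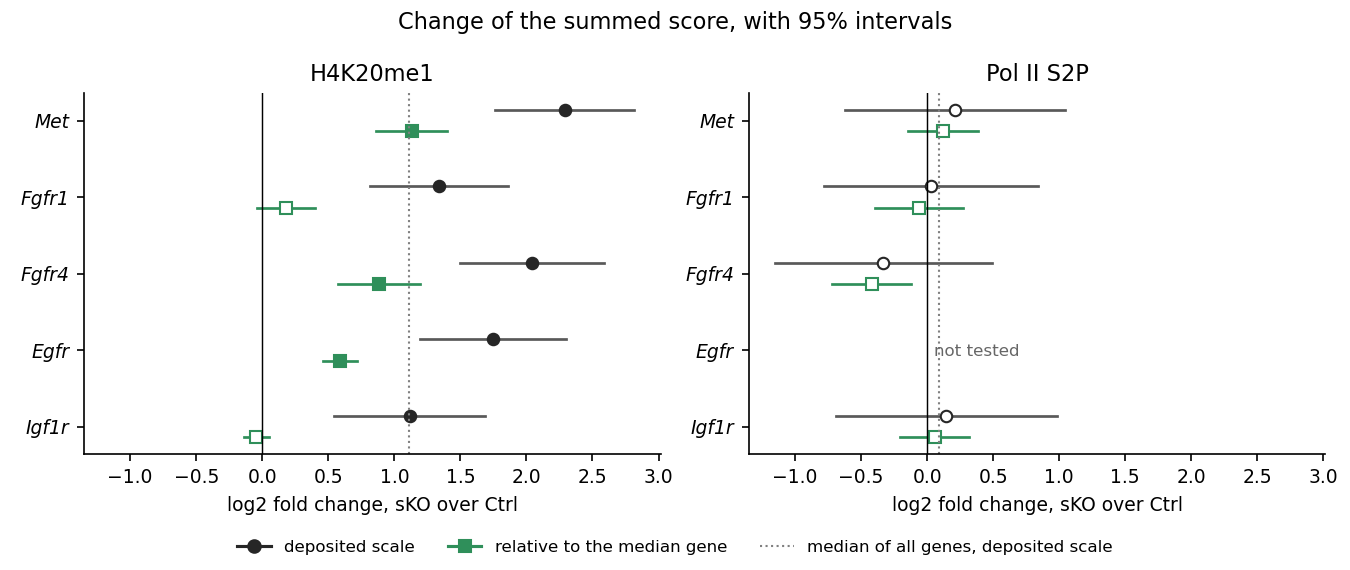
Log2 fold change of the summed score, sKO over Ctrl (horizontal axis), for each receptor gene with H4K20me1 (left) and Pol II S2P (right). Circles are on the deposited scale and squares are relative to the median gene, bars are 95% intervals from limma, filled symbols were called, and the dotted line is the median of all genes on the deposited scale. With H4K20me1 all 5 circles are filled and lie right of 0, and the squares of Met, Fgfr4 and Egfr are filled, while with Pol II S2P every interval on the deposited scale includes 0.

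Levels of different genes were compared per kb of gene. In Ctrl, Igf1r had the highest H4K20me1 level with 18.5 ± 3.78 per kb (SD, n = 2), below the median gene at 20.9. Fgfr4 followed with 12.03 ± 1.84 and Egfr with 11.2 ± 0.72, and the libraries of these neighbours overlapped. Fgfr1 had 8.39 ± 0.40 and Met 2.11 ± 0.33, and Met lay at percentile 5.67 of 13763 genes. Other neighbours in this order did not overlap.

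In sKO the order changed at the top. Fgfr4 led with 49.5 ± 0.26 per kb, above the median gene at 45.2. Its level divides a peak that lies mostly outside the gene by the length of the gene, and per kb of peak Fgfr4 was the lowest of the 5 in both genotypes. Igf1r with 39.8 and Egfr with 37.8 overlapped, and Fgfr1 with 21.3 and Met with 10.3 ± 0.08 stood apart below them. Met thus stayed lowest of the 5, at percentile 11.3. The share of the gene body under H4K20me1 peaks was 19.2% for Met, 36.6% for Fgfr1, 38.2% for Fgfr4, 69.1% for Egfr and 74.9% for Igf1r, beside a median of 68.2% over the genes tested.

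**Figure D2:**
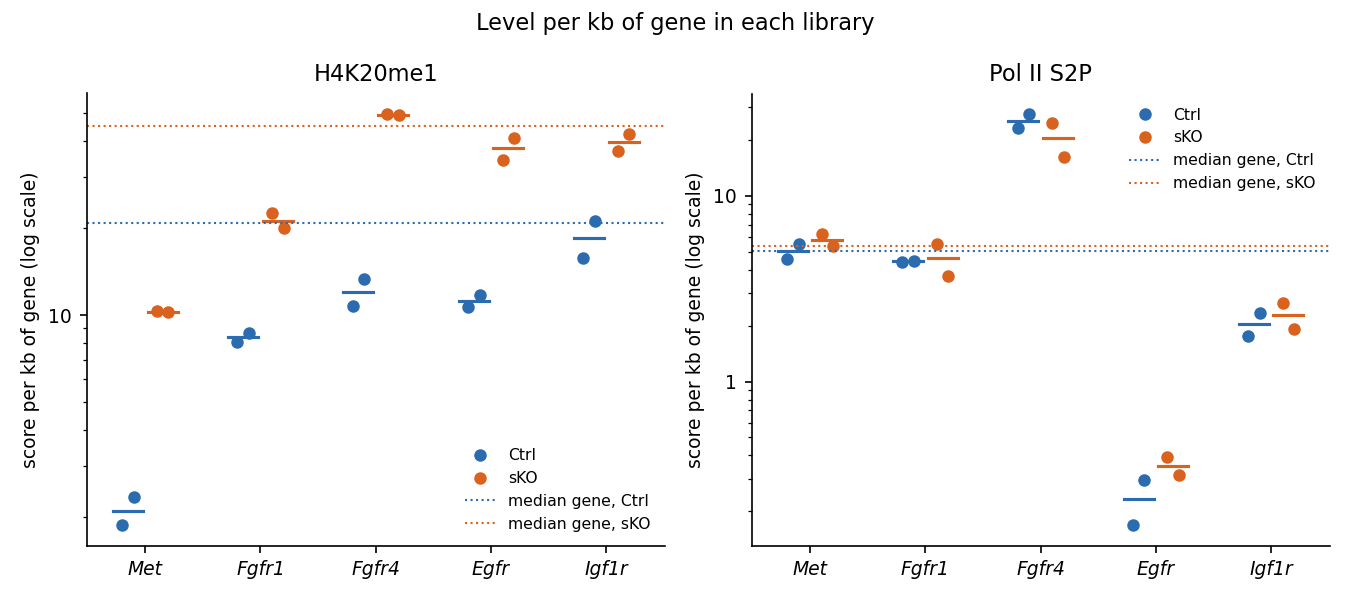
Score per kb of gene on a log axis for H4K20me1 (left) and Pol II S2P (right). Each point is 1 library, bars are means of 2 libraries and dotted lines are the median gene of each genotype. With H4K20me1 the points of Ctrl and sKO separate for all 5 genes and Met is lowest in both, while with Pol II S2P Egfr is lowest in both and Fgfr4, most of whose score is in a peak at its 3′ end, is highest.

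Genes with little H4K20me1 per kb in Ctrl had larger relative changes than most others in the table. When the 13750 genes were ordered by their Ctrl level per kb and split into 10 equal classes, the median log2 fold change relative to the median gene went from 0.30 in the lowest class to -0.33 in class 9, and was -0.19 in class 10, the highest. The level and the change share the Ctrl libraries, so these numbers are a description. Met, in class 1, changed by 1.13 against that class's upper quartile of 0.64. Fgfr4 with 0.88 and Egfr with 0.59, in class 4, also lay above its upper quartile of 0.32. Fgfr1 with 0.18 in class 3 lay near the median of 0.14, and Igf1r with -0.04 in class 5 near -0.01. The part of the Ctrl level in these changes was not tested.

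**Figure D3:**
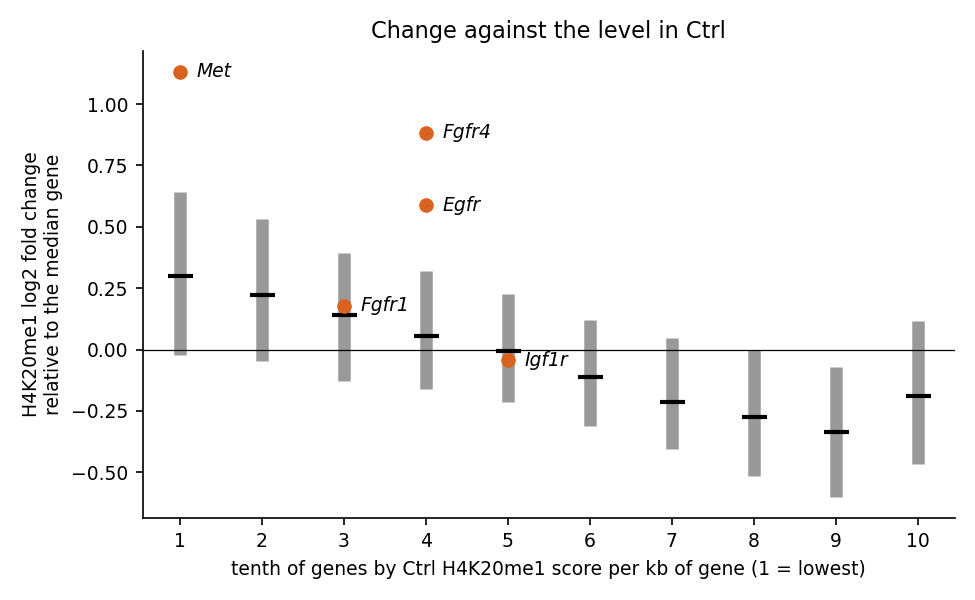
H4K20me1 log2 fold change relative to the median gene (vertical axis) in 10 equal classes of all tested genes ordered by Ctrl score per kb of gene (horizontal axis). Black dashes are medians, grey bars run from the lower to the upper quartile and labelled points are the receptor genes. Met, Fgfr4 and Egfr lie above the upper quartile of their classes, and Fgfr1 and Igf1r lie within the quartiles of theirs.

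Fgfr4 rested on its 1 H4K20me1 peak, while the strongest peak of each other receptor held between 32.7% and 40.9% of its score. In all 25 peaks the lower sKO library exceeded the higher Ctrl library, as in 93.8% of 41008 autosomal peaks, and all 25 were called higher, as were 90.1% of peaks tested, while 0.00244% were called lower. The limit for testing applied to the mean over both genotypes, and some peaks of Met and Egfr passed it only through their sKO scores. Peaks of 1 gene share that gene and are not replicates. Relative to the median peak, 11 of the 25 rose and 1 fell, beside 11% and 14.9% of all peaks tested.

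In Met, 4 of 5 peaks rose relative to the median peak. Among the 4 were the first and second peaks, whose Ctrl means of 17.5 and 29 were under the limit for testing. The first, at chr6:17464400-17466799 and centred in an intron 1800 bases from the start, scored 12 and 23 in Ctrl and 138 and 192 in sKO. Its ratio of 9.43 was the highest among the 25 peaks, from the lowest Ctrl scores, and its log2 fold change was 3.21 ± 0.63 (adjusted p = 2.68e-06). The last Met peak, at chr6:17558000-17564599, went from 65 and 88 to 369 and 377. The fourth, at chr6:17526400-17529599, had the smallest ratio of the 5, 3.09, and did not pass the relative test (0.38 ± 0.43, adjusted p = 0.522).

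In Egfr, 4 of 6 peaks rose relative to the median peak. Among the 4 was the fifth peak, whose Ctrl mean of 34.5 was under the limit for testing. The first, at chr11:16748000-16779399, covers the gene start and scored 481 and 453 in Ctrl and 1524 and 1787 in sKO. The third, at chr11:16802200-16830599, changed from 277 and 318 to 1176 and 1518, and 0.94 ± 0.12 relative to the median peak (adjusted p = 9.80e-14). Over 15169 of its 28399 bases this peak overlapped Egfros, an antisense gene, and CUT&RUN does not tell strands apart. The longest and last peak, at chr11:16880200-16919999, had the smallest ratio of the Egfr peaks, 2.75.

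None of the 4 Fgfr1 peaks passed the relative test, with values from -0.19 to 0.36 relative to the median peak. The first, at chr8:25521600-25529799, scored 152 and 154 in Ctrl and 431 and 403 in sKO, and the last, at chr8:25569200-25581199, scored 215 and 217 against 563 and 510. The last peak reached past the 3′ end of Fgfr1 and 2710 of its bases overlapped Letm2. No Fgfr1 peak covered the gene start.

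Igf1r was the one receptor with peaks called in both directions relative to the median peak. Neighbouring peaks at chr7:68040200-68055399 (205 and 231 in Ctrl, 740 and 872 in sKO) and at chr7:68057200-68063599 (77 and 114 in Ctrl, 365 and 361 in sKO) rose relative to the median peak, by 0.65 ± 0.15 (adjusted p = 8.59e-05) and 0.71 ± 0.24 (adjusted p = 0.0135). Both were centred in introns, 94973 and 107573 bases from the start. In contrast, the peak at chr7:67980600-68000799 went from 586 and 752 to 984 and 1077, the smallest ratio among the 25 with 1.54, and fell relative to the median peak (-0.60 ± 0.10, adjusted p = 1.49e-07). It had the highest Ctrl level of the 25, 33.1 per kb of peak. The longest peak, at chr7:68091000-68164199, went from 1417 and 1905 to 3452 and 3940, close to the median peak (-0.06 ± 0.07). The last, at chr7:68197000-68239799, went from 819 and 1246 to 2012 and 2372, and 3190 of its bases overlapped Pgpep1l.

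The highest and lowest scores per kb of peak differed by a smaller ratio in sKO than in Ctrl, though by a larger distance. The Ctrl means of the 25 peaks ran from 7.29 to 33.1, a ratio of 4.54, and the sKO means from 36.1 to 79.1, a ratio of 2.19. Over all autosomal peaks the lower and upper quartiles were 17.8 and 26.8 for Ctrl, against 44.4 and 53.7 for sKO. By gene, the Ctrl means were 9.70 for Fgfr4, 10.97 for Met, 15.4 for Egfr, 18.5 for Fgfr1 and 24.0 for Igf1r. The sKO means were 39.9, 53.5, 51.9, 46.8 and 51.6 in the same order. Met and Igf1r, which lay far apart in Ctrl, lay side by side in sKO.

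**Figure D4:**
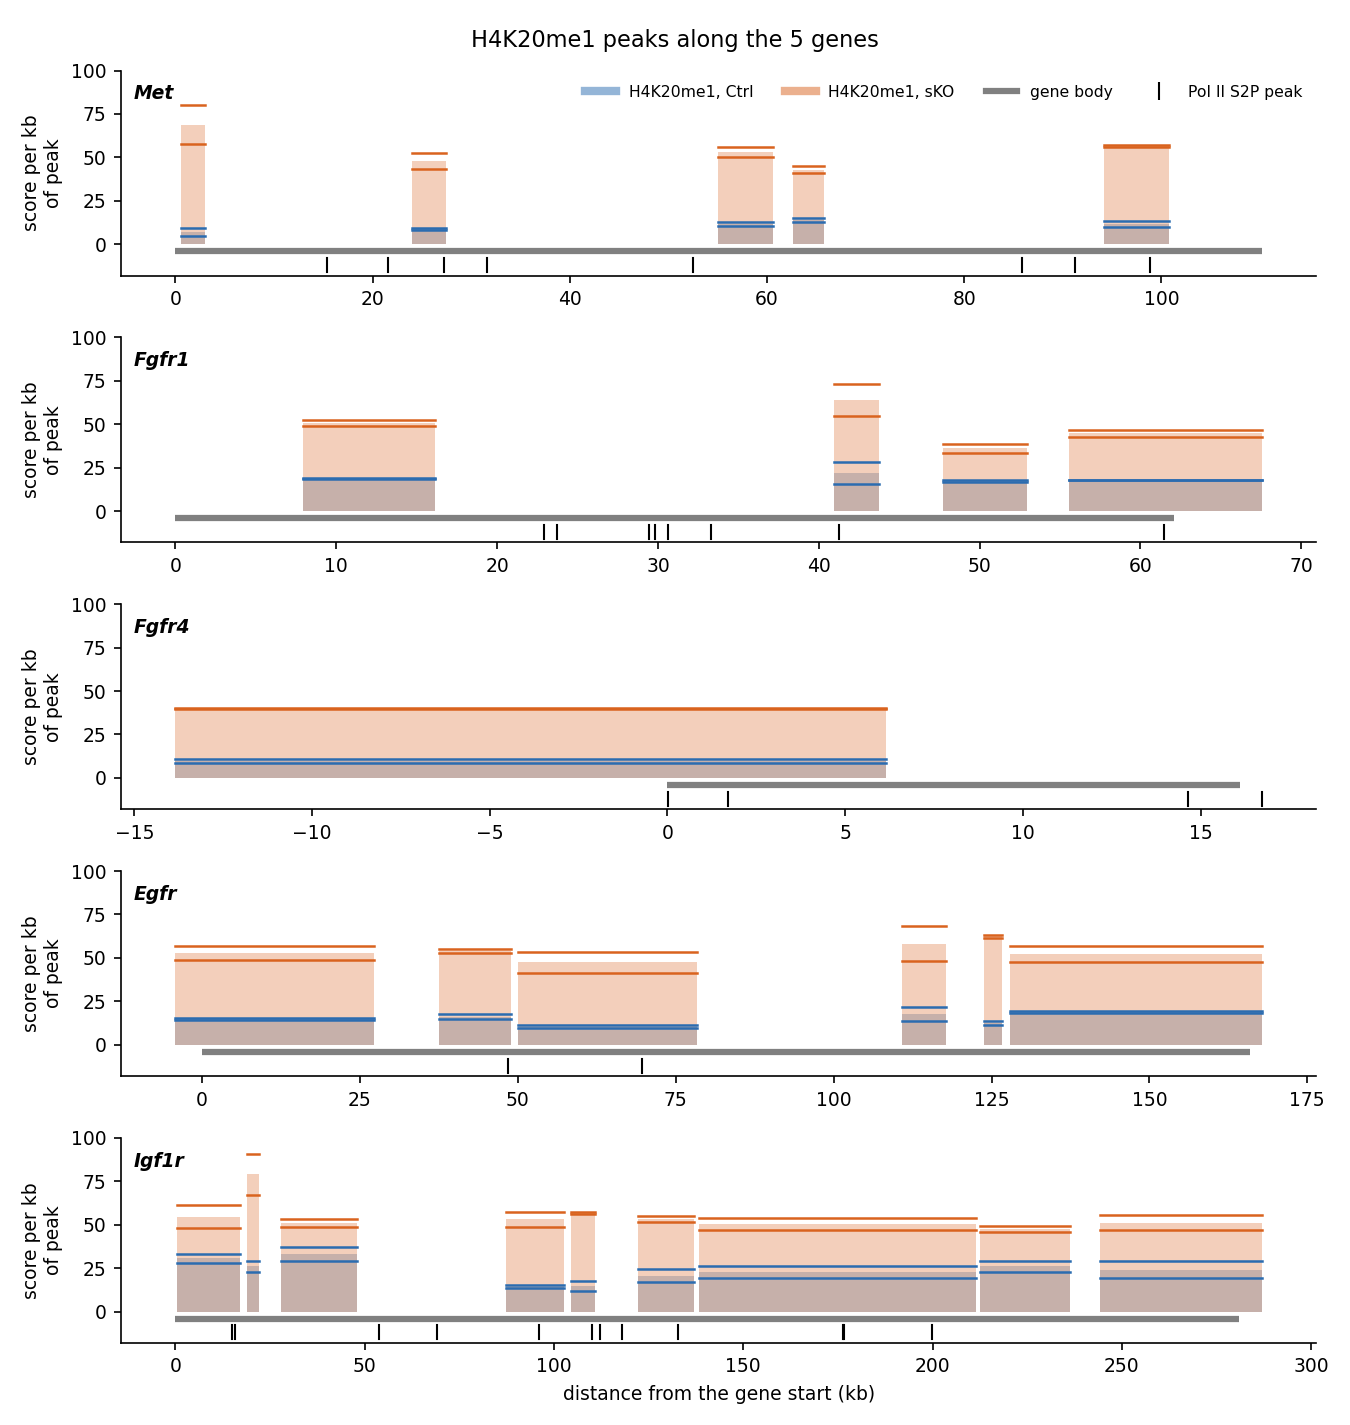
H4K20me1 score per kb of peak (vertical axis) along each receptor gene, with distance from the gene start in kb (horizontal axis, a different range in each panel). Filled blocks are means of Ctrl and sKO, lines are the 2 libraries of each, the grey bar is the gene body and ticks below it are Pol II S2P peaks. In all 25 blocks both sKO lines lie above both Ctrl lines, and the blocks reach 33.1 in Ctrl and 79.1 in sKO.

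Pol II S2P over the receptor genes tested did not pass in either direction, and Egfr was not tested. At the same limits 0% of 8531 genes rose and 0% fell on the deposited scale, with 100 genes at an unadjusted p under 0.05, of which 95 were higher in sKO. On the relative scale 1.81% rose and 0.504% fell, none of them a receptor tested. There 1174 genes had an unadjusted p under 0.05 (limma), of which 692 were higher in sKO. All 5 receptors scored higher in sKO replicate 1 than in sKO replicate 2, and higher in Ctrl replicate 2 than in Ctrl replicate 1, and the library totals had the same order.

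Met scored 502 and 606 in Ctrl against 689 and 592 in sKO, with overlap. The log2 fold change was 0.21 ± 0.43 (95% interval -0.62 to 1.05, adjusted p = 1). Fgfr1 scored 273 and 277 in Ctrl and 343 and 230 in sKO, with sKO libraries on both sides of the Ctrl pair and a log2 fold change of 0.03 ± 0.41. Igf1r scored 494 and 657 in Ctrl and 742 and 536 in sKO, and its log2 fold change was 0.15 ± 0.43 (95% interval -0.69 to 0.98). For each of these genes the interval on the deposited scale holds both a decrease and an increase of the size used for calls. Relative to the median gene the 95% intervals were narrower, -0.14 to 0.39 for Met, -0.39 to 0.27 for Fgfr1 and -0.20 to 0.32 for Igf1r, and none reached that size. Egfr scored 28 and 49 in Ctrl and 65 and 52 in sKO, both above both, but its mean of 48.5 was under the limit of 50 and it was not tested. With no limit on the score its log2 fold change was 0.64 ± 0.49 (adjusted p = 1).

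Fgfr4 was the only receptor tested whose estimate on the deposited scale was lower in sKO. It scored 373 and 444 in Ctrl and 399 and 262 in sKO, and the groups overlapped. Its log2 fold change was -0.33 ± 0.42 (95% interval -1.15 to 0.49, adjusted p = 1), lower than that of all but 4.93% of genes. Relative to the median gene it was -0.42 ± 0.15 (95% interval -0.72 to -0.12, limma, adjusted p = 0.148), and it did not pass. sKO replicate 2 held the low value, and the deposited-scale estimate was -0.028 without it and -0.63 without sKO replicate 1. Relative to the median gene the estimate stayed negative with each library left out, from -0.50 to -0.35. On equal totals it was -0.47 (limma, adjusted p = 0.0923), short of the limit of 0.5 in size.

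Per kb of gene, the Ctrl Pol II S2P level was 25.3 ± 3.11 (SD, n = 2) for Fgfr4, 5.03 ± 0.67 for Met, 4.43 ± 0.05 for Fgfr1, 2.05 ± 0.41 for Igf1r and 0.23 ± 0.09 for Egfr. No neighbours in this order overlapped. In sKO the order was the same, with 20.5, 5.81, 4.62, 2.28 and 0.35, and Met and Fgfr1 overlapped. The first place of Fgfr4 rested largely on a peak at its 3′ end. From peaks at least 0.5 inside the gene its level was 7.20 in Ctrl and 5.33 in sKO, and in both genotypes its libraries overlapped those of Met. Egfr thus had the least Pol II S2P per kb of the 5 in both genotypes. The median gene had 5.06 in Ctrl and 5.4 in sKO.

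The 34 Pol II S2P peaks were short, with a median length of 303 bases beside 374 over all peaks, and the centres of 31 lay in introns. In 8 of them both sKO libraries were above both Ctrl libraries, in 5 both were below and in 21 the groups overlapped, beside 15.6% above and 7.02% below over all autosomal peaks. A mean score over 50 was reached by 12 of the 34, and none of the 12 was called, beside 0.0447% of peaks tested that rose and 0.00447% that fell. None was called on the scale relative to the median peak either, on which 2.83% of peaks rose and 1.38% fell. Of the 34 peaks, 16 overlapped an H4K20me1 peak. The shares of all Pol II S2P peaks in introns or overlapping H4K20me1 were not taken, so these counts show nothing particular to the receptors.

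**Figure D5:**
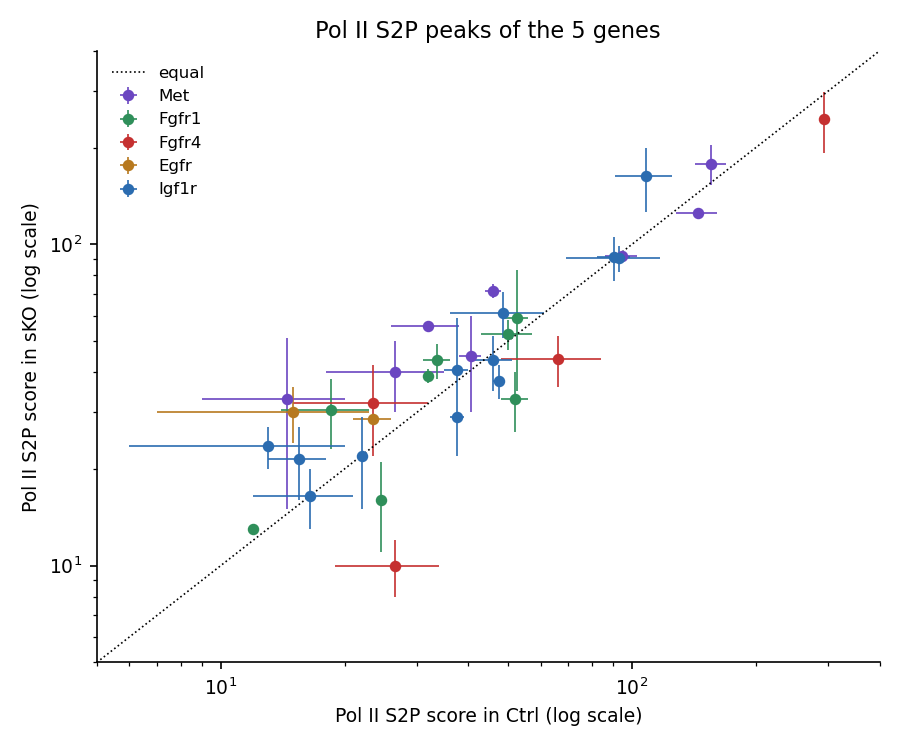
Mean Pol II S2P score of each of the 34 peaks in Ctrl (horizontal axis) and sKO (vertical axis), both on log axes and coloured by gene. Bars run between the 2 libraries of each genotype and the dotted line marks equal scores. Points lie on both sides of the line, the bars of some peaks cross it, and the peak of Fgfr4 at the upper right, near its 3′ end, has the highest scores.

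Fgfr4 differed from the other receptors in where its Pol II S2P peaks lay. A peak at chr13:55152554-55152768, which overlapped the promoter printed above, covered its GENCODE start at chr13:55152640. The RefSeq start of the printed window lies past the end of this peak. It scored 15 and 32 in Ctrl against 42 and 22 in sKO, with overlap. A peak over the start was found in 40.9% of the 11021 autosomal genes listed with a Pol II S2P peak. From the start of Fgfr1 the nearest Pol II S2P peak was 22827 bases away, from that of Egfr 48371 and from that of Igf1r 14960, all inside the genes. A peak listed with no gene, 1871 bases before the start of Met, scored 17 and 20 in Ctrl and 27 and 18 in sKO.

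The strongest Pol II S2P peak of Fgfr4, at chr13:55168733-55169995, began just before its 3′ end, was centred 605 bases past it and held 72.7% of its summed score. It scored 291 and 294 in Ctrl against 297 and 192 in sKO, on both sides of the Ctrl pair. A larger peak listed with no gene followed 1577 bases past the gene, at chr13:55170336-55172846, with 624 and 762 in Ctrl and 650 and 395 in sKO. sKO replicate 2 was lowest in both. The second Fgfr4 peak, in an intron at chr13:55154245-55154470, scored 19 and 34 in Ctrl and 8 and 12 in sKO, the lowest ratio among the 34 with 0.377, at scores under the limit for testing. When only peaks lying at least 0.5 inside the gene were summed, the log2 fold change of Fgfr4 was -0.39.

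Met had its strongest Pol II S2P peaks inside introns. The peak at chr6:17478792-17479571 scored 142 and 169 in Ctrl and 203 and 153 in sKO, and the one at chr6:17515866-17516681 scored 128 and 161 against 121 and 130. The groups overlapped in both. The Met peak at chr6:17490769-17491274, which touches an exon, scored 44 and 48 in Ctrl and 75 and 68 in sKO, without overlap (0.62 ± 0.51, not called).

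Igf1r had its strongest peak at chr7:68021645-68022206, 69099 bases from the start, with 91 and 125 in Ctrl and 199 and 126 in sKO. The groups were separated by 1 unit of score, and the log2 fold change of 0.57 ± 0.40 did not pass. Egfr had 2 peaks, with 21 and 26 in Ctrl against 29 and 28 in sKO for the first, and 7 and 23 against 36 and 24 for the second. The second lay wholly within the antisense gene Egfros.

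The strongest Fgfr1 peak, at chr8:25554726-25555154, scored 56 and 49 in Ctrl and 83 and 35 in sKO, and lay within the antisense gene Gm16159. The 200 bases at its centre, at chr8:25554841-25555040 on the plus strand of GRCm38, are shown because they hold TGAGTCA beside 5 matches of CANNTG, the E-box bound by MYOD1 and other basic helix-loop-helix factors. Capitals mark both motifs, and 1 match of CANNTG overlaps TGAGTCA. The centre of the 3′ peak of Fgfr4, at chr13:55169265-55169464, is shown as the strongest of the 34, with 3 matches of CANNTG and none of TGAGTCA.
Fgfr1 peak centre: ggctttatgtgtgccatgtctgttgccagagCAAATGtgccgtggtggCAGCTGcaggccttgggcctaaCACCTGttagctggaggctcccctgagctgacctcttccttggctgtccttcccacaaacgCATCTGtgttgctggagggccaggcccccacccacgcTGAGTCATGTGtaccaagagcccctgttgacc
Fgfr4 3′ peak centre: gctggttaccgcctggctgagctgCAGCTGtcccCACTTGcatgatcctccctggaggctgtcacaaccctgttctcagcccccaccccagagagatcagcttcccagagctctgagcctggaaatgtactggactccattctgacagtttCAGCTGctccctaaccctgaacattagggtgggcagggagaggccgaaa
Over the 34 peak centres, 26 held CANNTG and 4 held TGAGTCA on either strand. Of 50698 peak centres of the same length over all autosomes, 67.6% held CANNTG and 11.1% held TGAGTCA. These matches are letters in a window and do not show binding.

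Other genes of these pathways were counted from a list of 78, with ligands, further receptors, adaptors, the MAPK and PI3K cascades and feedback inhibitors. With H4K20me1 62 were tested, and on the deposited scale 56 rose (90.3%, beside 92.3% of all genes) and 0 fell. Their median log2 fold change was 1.01 beside 1.11 over all genes. On the relative scale 12.9% rose and 22.6% fell, beside 12.4% and 13.1% of all genes. With Pol II S2P 42 were tested and 0 were called on either scale. Over all genes 0% were called on the deposited scale, and 1.81% rose and 0.504% fell on the relative one. Of the 42, 4 (9.52%) had an unadjusted p under 0.05 (limma) on the relative scale, beside 13.8% of all genes tested. The median log2 fold change of the 42 on the deposited scale was 0.12 beside 0.089 over all genes.

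All 12 ligands and ligand-binding proteins tested rose on the deposited scale, where 92.3% of all genes did. Relative to the median gene 3 of the 12 rose (25%), beside 12.4% of all genes. The median of the 12 was 1.55 on the deposited scale, the highest of the roles. Igfbp2, which binds insulin-like growth factors, went from 141 and 226 in Ctrl to 716 and 670 in sKO (1.95 ± 0.28, adjusted p = 1.81e-10). Tgfa, a ligand of EGFR, had the smallest change among them (0.83 ± 0.28, adjusted p = 0.00357). All 10 other receptors tested rose on the deposited scale, beside the same 92.3% of all genes. They ran from 0.83 for Erbb2 to 1.99 for Erbb3, both partners of EGFR, with a median of 1.11, as over all genes. Relative to the median gene 1 of the 10, Erbb3, rose, beside 12.4% of all genes.

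The signalling genes inside the cell had medians of 0.91 for adaptors, 0.89 for the MAPK and PI3K cascade and 0.87 for feedback inhibitors, all under the median gene. Ptpn11, a phosphatase that links receptors to RAS, scored 2889 and 3985 in Ctrl and 3535 and 3650 in sKO and did not pass on the deposited scale (0.08 ± 0.28, adjusted p = 0.775), while relative to the median gene it fell (-1.08, adjusted p = 2.50e-25). At the other end, Irs2, an adaptor of IGF1R, rose by 1.92 on the log2 scale, Mapk3, the gene of ERK1, by 2.31, and Dusp6, a phosphatase that switches ERK off, by 2.10, each also relative to the median gene. The scores of Mapk3, 54 and 69 in Ctrl and 345 and 272 in sKO, were low.

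With Pol II S2P the highest and lowest estimates in each role did not pass. They were Insr (0.16) and Fgfr2 (0.12, in a gene model of 2961 kb) among receptors, Hgfac (0.41) and Igf2 (-0.61) among ligands, Crk (0.28) and Frs3 (-0.15) among adaptors, Pdpk1 (0.74) and Pik3r2 (-0.06) in the cascade, and Rasa1 (0.90) and Spry2 (-0.35) among inhibitors.

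The genes most like each receptor were found by the Euclidean distance over the 8 libraries of log2(score per kb + 1) less the library median, among 5849 genes tested with both antibodies. Nearest to Met were Best3 (0.44), Wwp2 (0.45) and Gcnt4 (0.53), beside a median distance of 5.67. Nearest to Fgfr1 were Stag3 (0.33), Tex14 (0.39) and Prmt7 (0.39), and nearest to Fgfr4 were Plin3 (0.32), Rarg (0.50) and Cavin1 (0.60). Nearest to Igf1r were Arhgef4 (0.26), Bcr (0.26) and Stk10 (0.30). Egfr, untested with Pol II S2P, had no such neighbours.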

How the data were processed

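Trimming by the authors used Trimmomatic 0.39, alignment to mm10 (GRCm38) STAR 2.7.3a, duplicate removal Picard 2.21.7 and testing DESeq2. Per the submitters' processing notes, MACS2 2.1.1 and SICER 0.0.41 were also used. The deposited values are a score for each union peak and library, a whole number that the methods describe as coverage normalised by spike-in. The tables as deposited also give the fraction of each peak inside its gene. A score is not a read count, and the depth in reads is unknown from it. Broad peaks can include part of a neighbouring gene.

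Here scores were summed by gene identifier, and log2(score + 1) was fitted with limma 3.58.1 in R 4.3.3 (lmFit, then eBayes with trend) for each antibody, with genotype as the only factor. Autosomal genes and peaks with a mean score over 50 were tested, and p-values were adjusted over all of them. With 2 libraries per group the precision rests on a variance shared across genes. Calls needed an adjusted p under 0.1 with an absolute log2 change over 0.5, limits taken from the study's methods. The fit was tested on simulated data. Alternatives were equal totals, quantile normalisation, no limit on the score, a pseudocount of 10, peaks lying mostly inside the gene, each library left out and a replicate block. Sequences were read with pysam 0.24.0 from GRCm38 and from RefSeq promoter windows, and peak positions are as deposited.

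The text names all 5 receptors, the tested genes with the highest and lowest change in each pathway role, the 3 nearest genes of each receptor tested with both antibodies, and genes that share or neighbour a peak. Some genes under this rule are not reported here. Members, lists and tests were chosen with earlier results of these data known.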

Additional observations from a re-analysis of the deposited data

Results flagged for a closer look

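The 3 H4K20me1 peaks listed with no gene that lay within 50 kb of a receptor gene, outside every sum above, scored higher in both sKO libraries than in both Ctrl libraries, as did 93.8% of all autosomal peaks. The first, 11820 bases downstream of Met, scored 27 and 49 in Ctrl and 176 and 275 in sKO, with a mean of 225.5 in sKO and a ratio of 5.93. The second, 20055 bases upstream of Fgfr1, scored 52 and 63 in Ctrl and 201 and 182 in sKO, with a mean of 191.5 in sKO and a ratio of 3.33. The third, 2628 bases upstream of Igf1r, scored 784 and 1100 in Ctrl and 1542 and 1751 in sKO, with a mean of 1646.5 in sKO and a ratio of 1.75. These peaks were not tested.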

How the results depend on the processing

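Of 160 values for single receptors under other settings, 146 kept their direction and their side of the limits. The H4K20me1 calls of Met and Fgfr4 held under every setting that could be run, on both scales. The scale between libraries mattered most. On equal totals 2858 of 13750 genes rose and 783 fell with H4K20me1, and Fgfr1 (0.36) and Igf1r (0.13) lost their calls. Of the 25 receptor peaks 13 were then called higher. The share over all peaks in that setting was not taken, so the count shows nothing particular to the receptors. After quantile normalisation 1422 genes rose and 1531 fell, and Fgfr1 (0.20) and Igf1r (0.25) again were not called. With each library left out in turn, between 5249 and 13376 genes rose with H4K20me1, fewest without sKO replicate 2 and without sKO replicate 1 (7392), and between 0 and 13 fell. With Pol II S2P, 108 genes rose and 73 fell on equal totals, 112 rose and 29 fell after quantile normalisation, 1 rose with no limit on the score, and up to 2 fell with a library left out. Relative to the median gene, 154 rose and 43 fell, 16 fell when only peaks mostly inside the gene were summed, and with a library left out between 32 and 300 rose and between 9 and 135 fell, most without Ctrl replicate 2 and fewest higher calls without sKO replicate 1.

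The uncalled Pol II S2P estimates near 0 changed sign: Fgfr1 on equal totals (-0.11), after quantile normalisation (-0.054) and without sKO replicate 1 (-0.26), and Igf1r without Ctrl replicate 1 (-0.059) and without sKO replicate 1 (-0.088). With a library left out, Fgfr1 ran from -0.26 to 0.32, Igf1r from -0.088 to 0.38 and Fgfr4 from -0.63 to -0.028, and relative to the median gene Fgfr1 ran from -0.25 to 0.13 (positive without Ctrl replicate 1) and Met from -0.00084 (without sKO replicate 2) to 0.24. Where a library is left out, the lone one is assumed to vary like the other genotype. The causes were not tested. Replicate numbers did not pair the libraries (correlation of deviations across genes 0.041 for H4K20me1 and -0.043 for Pol II S2P). With the replicate number as a block 12718 genes rose and 0 fell with H4K20me1, and it changed no call of a receptor. Fgfr4 had no H4K20me1 value with peaks at least 0.5 inside the gene, since its peak was excluded. On the deposited scale, Pol II S2P changes within the intervals above, and larger ones, could have gone uncalled, since 0 of 8531 genes passed there. The standard errors of the receptors tested were 0.13 to 0.17 relative to the median gene, with the same libraries.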

Other observations

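H4K20me1 peaks of neighbouring genes within 50 kb of the receptors were also higher in both sKO libraries than in both Ctrl libraries, as were 93.8% of all autosomal peaks. Upstream of Fgfr4, a peak of Znf346 scored 515 and 677 in Ctrl and 1007 and 1011 in sKO. Downstream of it, a peak of Nsd1, a histone H3 lysine 36 methyltransferase gene, scored 3411 and 4611 in Ctrl and 5112 and 5535 in sKO. Downstream of Fgfr1, a peak of Nsd3, a relative of Nsd1, scored 1114 and 1349 in Ctrl and 2046 and 2077 in sKO. Downstream of Egfr, a peak of the non-coding gene Eldr scored 89 and 120 in Ctrl and 252 and 331 in sKO, and a peak of Plek scored 339 and 414 in Ctrl and 1082 and 1342 in sKO. Downstream of Igf1r, a peak of Pgpep1l scored 48 and 41 in Ctrl and 234 and 217 in sKO, and a peak of Fam169b 54 and 65 in Ctrl and 179 and 279 in sKO. The differences between these neighbours and the receptors were not tested.

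With Pol II S2P, 12 peaks listed with Letm2 or Nsd3 lay within 50 kb downstream of Fgfr1 and summed to 642 and 935 in Ctrl and 1122 and 713 in sKO, with overlap between the groups. Around Fgfr4, 6 peaks downstream summed to 924 and 1172 in Ctrl and 1099 and 731 in sKO, and 13 peaks upstream to 447 and 649 in Ctrl and 622 and 429 in sKO. In all these sums, as over the receptors, sKO replicate 1 was above sKO replicate 2. Around Met, Egfr and Igf1r there were 2, 1 and 1 such peaks.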
